A study of Mus musculus with 12 samples.

Results

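The 10 genes described here were grouped as acute phase proteins of the mouse liver: the serum amyloid A genes Saa1, Saa2, Saa3 and Saa4, the orosomucoid genes Orm1, Orm2 and Orm3, lipocalin 2 (Lcn2), haptoglobin (Hp) and serum amyloid P component (Apcs). They were taken by symbol from a deposited table of 48795 genes, and all 10 had enough counts to be tested. The table gives them the Ensembl identifiers ENSMUSG00000074115 (Saa1), ENSMUSG00000057465 (Saa2), ENSMUSG00000040026 (Saa3), ENSMUSG00000040017 (Saa4), ENSMUSG00000039196 (Orm1), ENSMUSG00000061540 (Orm2), ENSMUSG00000028359 (Orm3), ENSMUSG00000026822 (Lcn2), ENSMUSG00000031722 (Hp) and ENSMUSG00000026542 (Apcs). Liver RNA was sequenced from 12 female mice aged 4 months, kept on normal chow, with 3 mice in each of 4 groups. Wild-type mice (Nts+/+) and littermates with a whole-body deletion of neurotensin (Nts-/-), a gut peptide, were bred from heterozygous parents. They had free access to food or went without it for 22 h before the livers were taken. The Nts+/+ fed mice were 254, 257 and 323, and the Nts+/+ fasted mice were 265, 282 and 322. The Nts-/- fed mice were 277, 303 and 319, and the Nts-/- fasted mice were 284, 290 and 295.

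In the acute phase response, cytokines released during infection or injury, chiefly interleukin 6 (IL-6) and interleukin 1 (IL-1), act on hepatocytes and change which plasma proteins they secrete. IL-6 acts through its receptor, JAK kinases and STAT3, IL-1 through NF-kB, and both raise the transcription factors C/EBP beta and C/EBP delta, with glucocorticoids acting together with the cytokines. Proteins that rise are called positive acute phase proteins and include genes studied here, although Saa4 is expressed constitutively. Those that fall, such as transthyretin and transferrin, are called negative.

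Fasting did not move these genes in 1 direction. In a test of the mean fasting effect over both genotypes, Lcn2 (5.93-fold) and Hp (1.85-fold) rose, whereas Saa4 (1.99-fold lower), Saa2 (1.75-fold lower), Orm2 (1.69-fold lower) and Orm1 (1.47-fold lower) fell. Saa1, Saa3, Orm3 and Apcs did not pass this test. The labelled genotype gave no call for any member, whether the livers were fed or fasted.

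The depth of the libraries was between 21999647 and 45273069 counts. Levels are in CPM (counts scaled to the total of the library), adjusted by TMM factors between 0.915 and 1.10, and 3 counts correspond to between 0.0663 and 0.136 CPM, which covers counting error only. Hepatocyte markers, of which 9 of 9 were tested, were each present in every mouse. The deleted gene did not follow its label: Nts had no count in any of the 6 libraries labelled Nts+/+, but 46, 40 and 15 counts in the fed and 12, 4 and 18 counts in the fasted libraries labelled Nts-/-. Every genotype direction below is therefore that of the deposited labels. Fewer cells of a type and less RNA per cell cannot be told apart in whole liver.

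The Saa genes lie together on chromosome 7 between 46711998 and 46754313, and the Orm genes on chromosome 4 between 63344560 and 63365878 (GRCm38). Saa1 and Saa2, and the Orm genes, are close copies. Hp (chr8:109575128-109579172), Lcn2 (chr2:32384633-32388252) and Apcs (chr1:172893961-172895041) lie elsewhere. Promoter sequence from RefSeq (build GRCm38.p6) was matched by symbol for 8 of the 10 members. Orm1 and Hp had no entry in the set of promoters used here. The sequences below are shown because each holds the letters TTGCNNAA, or their reverse complement, the core bound by C/EBP factors. Those letters are in capitals, the rest is in lower case, and each sequence is written 5′ to 3′ on the strand of its gene. For Saa1 (chr7:46742981-46743230, minus strand), Saa2 (chr7:46751583-46751832, plus strand), Orm2 (chr4:63362199-63362448, plus strand), Orm3 (chr4:63355908-63356157, plus strand) and Lcn2 (chr2:32387740-32387989, minus strand), the 250 bases before the RefSeq start are given. For Saa3 (chr7:46715743-46715800, minus strand) and Saa4 (chr7:46732623-46732680, minus strand), 58 bases around the match are given.
Saa1: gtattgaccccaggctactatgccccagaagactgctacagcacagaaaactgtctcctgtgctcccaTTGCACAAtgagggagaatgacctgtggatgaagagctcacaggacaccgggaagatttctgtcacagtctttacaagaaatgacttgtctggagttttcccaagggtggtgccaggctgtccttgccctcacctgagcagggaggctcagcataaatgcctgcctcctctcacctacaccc
Saa2: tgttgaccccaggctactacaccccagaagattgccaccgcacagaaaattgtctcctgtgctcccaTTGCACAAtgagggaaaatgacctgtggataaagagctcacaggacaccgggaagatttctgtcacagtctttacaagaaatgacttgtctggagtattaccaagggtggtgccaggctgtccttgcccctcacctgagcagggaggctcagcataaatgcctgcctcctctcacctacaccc
Orm2: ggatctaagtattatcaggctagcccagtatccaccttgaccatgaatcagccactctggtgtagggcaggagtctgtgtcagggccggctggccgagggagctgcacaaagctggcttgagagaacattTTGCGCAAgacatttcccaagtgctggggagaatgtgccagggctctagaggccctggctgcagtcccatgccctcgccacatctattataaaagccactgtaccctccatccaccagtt
Orm3: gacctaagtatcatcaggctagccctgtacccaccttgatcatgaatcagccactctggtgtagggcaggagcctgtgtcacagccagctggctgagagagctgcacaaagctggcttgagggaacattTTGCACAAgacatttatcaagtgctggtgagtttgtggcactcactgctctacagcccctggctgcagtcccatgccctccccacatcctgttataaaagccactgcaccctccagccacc
Lcn2: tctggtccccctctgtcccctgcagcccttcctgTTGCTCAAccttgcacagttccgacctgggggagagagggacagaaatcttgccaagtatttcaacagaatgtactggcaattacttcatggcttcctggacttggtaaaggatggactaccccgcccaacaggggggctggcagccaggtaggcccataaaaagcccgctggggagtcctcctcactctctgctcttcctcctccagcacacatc
Saa3: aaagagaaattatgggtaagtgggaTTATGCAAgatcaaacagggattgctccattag
Saa4: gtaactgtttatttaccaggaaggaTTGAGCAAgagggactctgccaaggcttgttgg

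The promoters of Saa1 and Saa2 were 94.8% identical over aligned positions, and those of Orm2 and Orm3 were 85.5% identical. Saa1 was 48.5% identical to Saa3 and 46.3% to Saa4, with 36 and 44 gap positions. No unrelated promoters were aligned for comparison, so the values for Saa3 and Saa4 do not show shared sequence. The C/EBP letters were found in the 250 bases before the start of 7 of the 8 members, with Apcs the exception, against 9.57% of 32841 mouse promoters searched over the same length. Since Saa1 and Saa2, and Orm2 and Orm3, share sequence, these 7 are not independent. In Saa1 and Saa2 the letters begin 182 and 183 bases before the start, and in Orm2 and Orm3 120 and 121 bases before it. They begin 99 bases before the start in Saa3, 216 in Lcn2, and 245 and 52 in Saa4, which holds them at both places.

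The letters TTCNNNGAA, a core bound by STAT factors, were found in Apcs only of the 8 members and in 7.02% of all promoters. CTGGGAA, the core of the IL-6 response element, was also found in Apcs only, at 2 places, and in 9.1% of all promoters. GGGANNNNCC, a core bound by NF-kB, was found in 0 of the 8 members and in 17.6% of all promoters, and the glucocorticoid receptor letters GNACANNNTGTNC in 0 members and 0.387% of all promoters. All motifs were searched on both strands, the matches of different motifs did not overlap, and a match or its lack describes only these letters in this window. For Saa2, Saa3 and Lcn2, the gene bounds in the deposited table reach beyond the RefSeq start, so that the window lies in part or, for Lcn2, wholly within those bounds.

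Per kilobase of the canonical transcript, the members differed widely in level. In fed Nts+/+ livers, the mean level per kilobase was 1991 CPM for Hp, 879 for Orm1, 142 for Apcs, 99.9 for Saa4, 49.4 for Saa1, 36.5 for Orm2, 29.9 for Saa2, 10.5 for Lcn2, 10.1 for Saa3 and 2.35 for Orm3. Neighbours in this order whose ranges over the 3 mice overlapped were Apcs and Saa4, Saa1 and Orm2, Orm2 and Saa2, and Lcn2 and Saa3. Lcn2 stood in place 8 of the 10 members in fed livers of both labelled genotypes. After fasting it stood in place 4 in Nts+/+ livers, at 71.6 CPM per kilobase, where its range overlapped those of Apcs and Saa4, and in place 5 in livers labelled Nts-/-, at 40.0 CPM per kilobase, where its range overlapped those of Saa4 and Saa1. The other members kept their order in fasted Nts+/+ livers. In livers labelled Nts-/-, Saa2 stood before Orm2 after fasting, with overlapping ranges.

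Together the members took between 0.233% and 0.585% of all counts in a mouse. Hp alone made up between 65.7% and 72.4% of the member counts in fed and between 83.3% and 86.0% in fasted Nts+/+ livers. In livers labelled Nts-/-, its part was between 58.8% and 78.4% when fed and between 86.1% and 86.5% when fasted.

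**Figure D1:**
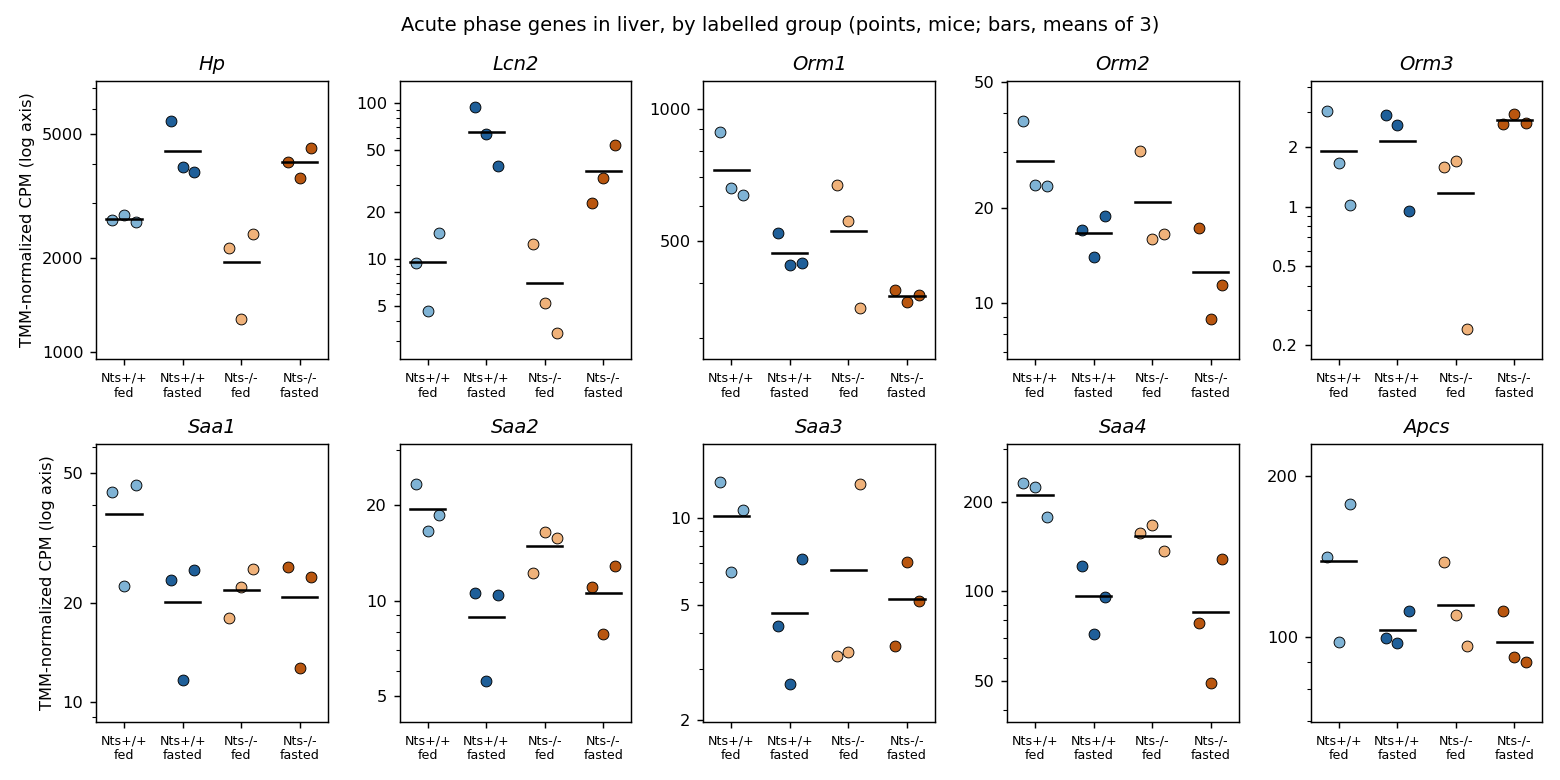
TMM-normalized CPM (log axis) of the 10 members in each labelled group, with a point for each mouse and a bar at the mean of 3 mice. Lcn2 and Hp lie higher in all 6 fasted mice than in the fed mice of the same label, and Saa4 lies lower in all 6.

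Haptoglobin binds free hemoglobin in plasma and is the most abundant transcript of the group. Hp was at 2653, 2764 and 2624 CPM in fed Nts+/+ mice and at 5499, 3936 and 3769 CPM in fasted ones, so that the groups did not overlap (means 2680.3 ± 73.8 and 4401 ± 954 CPM, SD, n = 3). In mice labelled Nts-/-, it was at 2167, 1281 and 2390.2 CPM when fed and at 4074, 3609 and 4525 CPM when fasted (means 1946 ± 587 and 4069 ± 458 CPM, SD, n = 3). The fasted mice were higher in both labels without overlap. The log2 fold change was 0.72 (SE 0.22, adjusted p = 0.0360 in edgeR's quasi-likelihood test with Benjamini-Hochberg adjustment) in Nts+/+ livers and 1.06 (SE 0.22, adjusted p = 0.00539) in livers labelled Nts-/-. The mean of both was 0.89 (SE 0.15, 95% interval 0.56 to 1.22, adjusted p = 6.93e-04). Hepatocyte markers were also higher after fasting as a sum, though not each of them. Their summed level was between 19223 and 19855 CPM in fed and between 23211 and 35281 CPM in fasted Nts+/+ livers, and between 17477 and 19326 CPM in fed and between 28997 and 30540.2 CPM in fasted livers labelled Nts-/-. For the mean of both genotypes, 5 of the 9 markers passed, all higher, against 16.0% of all genes tested, and 6 of the 9 had a positive log2 fold change. In Nts+/+ livers 3 passed, against 8.91% of all genes higher, and in livers labelled Nts-/- 4 passed, against 7.70%. Abundant markers weigh most in the sum. Cyp2e1 reached 12808 CPM, whereas Hnf4a reached 808 CPM and overlapped between fed and fasted mice in both labels. The part of the hepatocyte markers in the results for Hp and Lcn2 was not tested.

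Lipocalin 2 binds bacterial siderophores and so withholds iron from microbes. It had the largest fold change of the members. Lcn2 was at 9.49, 4.64 and 14.6 CPM in fed and at 93.7, 63.1 and 39.6 CPM in fasted Nts+/+ mice (means 9.59 ± 5.00 and 65.5 ± 27.1 CPM, SD, n = 3). Mice labelled Nts-/- were at 12.5, 5.25 and 3.38 CPM when fed and at 22.8, 33.2 and 53.8 CPM when fasted (means 7.06 ± 4.84 and 36.6 ± 15.8 CPM, SD, n = 3). The lowest fasted mouse, 284, lay above the highest fed mouse, 323, over all 12 mice. The log2 fold change was 2.78 (SE 0.61, adjusted p = 0.0150, edgeR) in Nts+/+ livers and 2.36 (SE 0.61, adjusted p = 0.0287) in livers labelled Nts-/-, with a mean of 2.57 (SE 0.43, 95% interval 1.59 to 3.54, adjusted p = 0.00191). By its mean fasting effect, Lcn2 lay within the highest 0.536% of all genes tested.

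Lcn2 is also a granule protein of neutrophils and is made by adipocytes. Of 11 neutrophil markers, 4 had enough counts to be tested and 0 passed in any fasting comparison, and Mpo, Elane and Ly6g were under 10 counts in every mouse. Their summed level was between 4.30 and 11.7 CPM in fed and between 3.23 and 5.95 CPM in fasted Nts+/+ livers, and between 2.24 and 6.27 CPM in fed and between 4.35 and 6.19 CPM in fasted livers labelled Nts-/-. Of 7 adipocyte markers, Lep and Retn had no count in any mouse, and Adipoq, Plin1 and Cfd were under 10 counts in every mouse. Only the adipocyte marker Cidec, a lipid droplet protein that fasted liver also makes, was tested. It rose by a log2 fold change of 6.85 (SE 0.36, adjusted p = 1.06e-06, edgeR, mean of both genotypes).

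The serum amyloid A proteins are carried on high-density lipoprotein. Saa1 and Saa2 are the classical acute phase forms of liver, Saa3 is also made by macrophages and adipocytes, and Saa4 is expressed constitutively. RefSeq lists the symbols Saa1 and Saa2 as synonyms of each other, and symbols are used here as the deposited table gives them.

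Saa4, the most abundant of the 4, was at 232, 225 and 178 CPM in fed and at 122, 72.2 and 95.7 CPM in fasted Nts+/+ mice (means 212 ± 29.3 and 96.6 ± 24.9 CPM, SD, n = 3). In mice labelled Nts-/-, it was at 157, 167 and 137 CPM when fed and at 78.4, 49.3 and 128 CPM when fasted (means 154 ± 15.3 and 85.3 ± 39.9 CPM, SD, n = 3). All fasted mice lay below the fed mice of their label, mouse 295 only just. The log2 fold change was -1.13 (SE 0.29, adjusted p = 0.0202, edgeR) in Nts+/+ livers and -0.85 (SE 0.29, adjusted p = 0.0667) in livers labelled Nts-/-. The latter was between -1.26 and -0.57 when 1 of the 6 mice was left out and passed in 1 of the 6 fits, that without mouse 295 (adjusted p = 0.00521, otherwise up to 0.180). The mean of both was -0.99 (SE 0.21, 95% interval -1.44 to -0.54, adjusted p = 0.00329).

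Saa2 was at 23.3, 16.6 and 18.7 CPM in fed and at 10.6, 5.59 and 10.4 CPM in fasted Nts+/+ mice (means 19.5 ± 3.45 and 8.87 ± 2.84 CPM, SD, n = 3), without overlap. Its level in mice labelled Nts-/- was 12.3, 16.5 and 15.8 CPM when fed and at 11.0, 7.88 and 12.9 CPM when fasted (means 14.8 ± 2.25 and 10.6 ± 2.55 CPM, SD, n = 3), and mice 277 and 295 overlapped. Fasting gave a log2 fold change of -1.14 (SE 0.25, adjusted p = 0.00763, edgeR) in Nts+/+ livers, -0.48 (SE 0.24, adjusted p = 0.203) in livers labelled Nts-/- and -0.81 (SE 0.17, adjusted p = 0.00330) for the mean of both. With the counts of Saa1 and Saa2 summed, the mean fasting effect was -0.60 and no longer passed (adjusted p = 0.0622).

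Saa1 was at 43.6, 22.7 and 45.8 CPM in fed and at 23.6, 11.7 and 25.4 CPM in fasted Nts+/+ mice. In mice labelled Nts-/-, it was at 18.1, 22.4 and 25.5 CPM when fed and at 25.9, 12.7 and 24.1 CPM when fasted. The fed Nts+/+ mice 254 and 323 were the highest, and fed and fasted mice overlapped in both labels. Fasting gave a log2 fold change of -0.89 (SE 0.36, adjusted p = 0.119, edgeR) in Nts+/+ livers and -0.070 (SE 0.36, adjusted p = 0.922) in livers labelled Nts-/-, and the mean was -0.48 with a 95% interval of -1.05 to 0.090.

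Saa3 was at 13.3, 6.48 and 10.6 CPM in fed and at 4.22, 2.68 and 7.19 CPM in fasted Nts+/+ mice. Mice labelled Nts-/- were at 3.33, 3.44 and 13.1 CPM when fed and at 3.62, 7.01 and 5.15 CPM when fasted. The groups overlapped in both labels, and in the fed group labelled Nts-/- mouse 319 stood well above the other two. The mean log2 fold change of -0.71 had a 95% interval of -1.61 to 0.19 (adjusted p = 0.213, edgeR). Without mouse 319, the fasting effect in livers labelled Nts-/- turned from -0.32 to 0.64, neither past the threshold.

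Kupffer cell and macrophage markers moved with part of this pattern. The summed level of the 11 markers was between 732 and 767 CPM in fed and between 367 and 618 CPM in fasted Nts+/+ livers. It was between 475 and 607 CPM in fed and between 455 and 668 CPM in fasted livers labelled Nts-/-. In Nts+/+ livers, 4 of the 11 markers passed the fasting test, all lower, against 9.19% of all genes tested. In livers labelled Nts-/-, 0 passed, against 9.14% of all genes lower. A positive log2 fold change was seen for 0 of the 11 in Nts+/+ livers (median -0.66) and for 4 in livers labelled Nts-/- (median -0.029). The difference of the fasting effect between the labels passed for 0 of the 11, so these counts do not show that the effects differ. For the mean of both, 5 passed, all lower, against 16.8% of all genes, namely Clec4f, Cd68 and the complement genes C1qa, C1qb and C1qc. Marco went the other way in livers labelled Nts-/-, where every fasted mouse lay above the fed mice. In those livers 35.2% of all genes tested did not overlap. The part of these markers in the results for Saa genes was not tested. The sum over 10 lymphocyte markers, of which 0 passed in a fasting test, was between 10.2 and 22.9 CPM over all mice.

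The orosomucoids, also called alpha-1-acid glycoproteins, are plasma proteins that bind drugs and steroids. Orm1 was at 883, 658 and 635 CPM in fed and at 519.9, 440.1 and 445 CPM in fasted Nts+/+ mice (means 725 ± 137 and 468 ± 44.7 CPM, SD, n = 3), without overlap. Its level in mice labelled Nts-/- was 668, 555 and 351 CPM when fed and at 385, 362 and 375 CPM when fasted (means 525 ± 161 and 374 ± 11.6 CPM, SD, n = 3). Mouse 319 was the lowest of all 12 although it was fed, and it made those groups overlap. Its log2 fold change was -0.63 (SE 0.20, adjusted p = 0.0461, edgeR) in Nts+/+ livers, -0.49 (SE 0.20, adjusted p = 0.115) in livers labelled Nts-/- and -0.56 (SE 0.14, adjusted p = 0.00883) for the mean of both. With 1 of the 6 mice left out, the effect in livers labelled Nts-/- was between -0.71 without mouse 319, where it passed (adjusted p = 0.0111), and -0.27 without mouse 277 (adjusted p = 0.449), and it passed in 1 of the 6 fits.

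Orm2 was at 37.6, 23.7 and 23.5 CPM in fed and at 17.1, 14.0 and 18.9 CPM in fasted Nts+/+ mice. Those labelled Nts-/- were at 30.2, 15.9 and 16.6 CPM when fed and at 17.3, 8.92 and 11.4 CPM when fasted. The groups were apart in Nts+/+ mice and overlapped in those labelled Nts-/-, where mouse 277 was high. Its log2 fold change was -0.76 (SE 0.30, adjusted p = 0.105, edgeR) in Nts+/+ livers and -0.74 (SE 0.30, adjusted p = 0.119) in livers labelled Nts-/-. The mean of both, -0.75 (SE 0.21, adjusted p = 0.0192), passed. It did not pass when no genes were filtered out (adjusted p = 0.0527).

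Orm3 was the least abundant member, with between 6 and 112 counts in a mouse. It was at 3.03, 1.66 and 1.02 CPM in fed and at 2.89, 2.58 and 0.949 CPM in fasted Nts+/+ mice, which overlapped. In mice labelled Nts-/-, it was at 1.59, 1.70 and 0.242 CPM when fed and at 2.61, 2.94 and 2.65 CPM when fasted. These groups did not overlap, and mouse 319 was the lowest. The log2 fold change in livers labelled Nts-/- was 1.19 (SE 0.58, adjusted p = 0.190, edgeR), and the mean of both genotypes was 0.66 with a 95% interval of -0.23 to 1.56.

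Values of close copies are less certain than those of the other members. Of all 50-base windows of the canonical Orm1 transcript, 19.1% occur unchanged in Orm2, and 20.4% of those of Orm2 in Orm1. For Saa1 and Saa2 the shares were 7.20% and 8.46%. Orm1 and Orm2 had expected counts that were not whole numbers in all 12 mice, that is, reads were divided between genes, whereas Saa1, Saa2 and Orm3 had such a value in 1 mouse and the other members in none. The count ratio of Orm1 to Orm2 was between 21.2 and 40.6 in all mice, so that a sum over the Orm genes follows Orm1.

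Serum amyloid P component, encoded by Apcs, is the pentraxin that serves as a positive acute phase protein in mice. Apcs was at 141, 97.9 and 177 CPM in fed and at 99.7, 97.6 and 112 CPM in fasted Nts+/+ mice. Those labelled Nts-/- were at 138, 109.9 and 96.3 CPM when fed and at 112, 92.0 and 90.1 CPM when fasted. The groups overlapped in both labels. The mean log2 fold change was -0.33 (SE 0.14, 95% interval -0.62 to -0.034, adjusted p = 0.0823, edgeR). With 1 of the 12 mice left out, it was between -0.43 without mouse 257 (adjusted p = 0.0161) and -0.22 without mouse 323 (adjusted p = 0.208), and it passed in 1 of the 12 fits.

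In all, 5 of the 10 members passed the fasting test in Nts+/+ livers (2 higher and 3 lower), against 18.1% of the 13812 genes tested, 8.91% higher and 9.19% lower. In livers labelled Nts-/-, 2 passed, Lcn2 and Hp, both higher, against 16.8% of genes, 7.70% of them higher and 9.14% lower. For the mean of both genotypes, 6 passed (2 higher and 4 lower), against 32.8% of genes, 16.0% higher and 16.8% lower. The Wald test of DESeq2 called 7, 3 and 6 members, against 2881, 2788 and 4706 of the 13812 genes. The median log2 fold change of the members was -0.70 in Nts+/+ livers, -0.27 in livers labelled Nts-/- and -0.52 for the mean, where the medians of all genes tested were -0.0032, -0.011 and -0.0071. The groups did not overlap for 6 members in Nts+/+ livers, against 36.0% of all genes tested, and for 4 members in livers labelled Nts-/-, against 35.2%.

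The counts within a label rested on few mice. Leaving out mouse 254 left 1 member passing in Nts+/+ livers, Saa2, leaving out 282 left 2, leaving out 257, 265 or 322 left 3, and leaving out 323 left 4. The calls over all genes tested in Nts+/+ livers fell as well. They went from 2501 to 1326 without mouse 254, 1224 without 282, 1596 without 257, 1962 without 265, 2209 without 322 and 2418 without 323. Apcs passed in these livers only without mouse 257 (adjusted p = 0.0357). Saa2 passed in all 6 such fits, Lcn2 in 5 (adjusted p = 0.0605 without mouse 254), Saa4 in 2, and Hp and Orm1 in 1 each. In livers labelled Nts-/-, Hp passed in all 6 fits and Lcn2 in 2, with an adjusted p between 0.0631 and 0.0969 without mouse 303, 319, 290 or 295. The mean of both genotypes did not depend on a single mouse in this way: Lcn2, Hp, Saa4, Saa2, Orm1 and Orm2 passed in all 12 fits that left out a mouse.

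**Figure D2:**
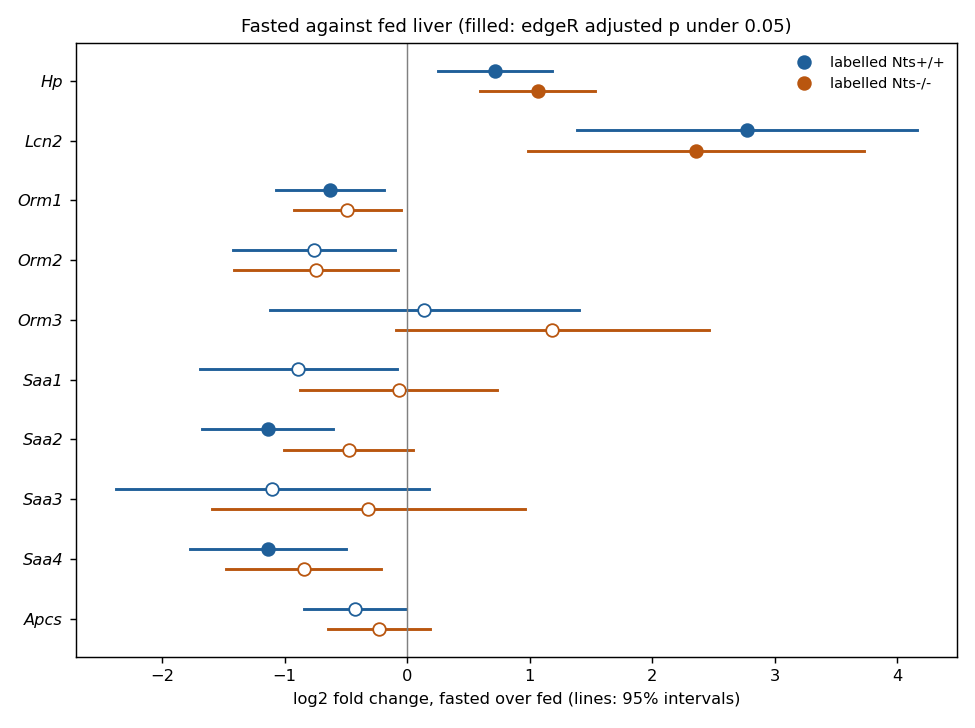
Log2 fold change of fasted over fed livers for each member (points) with 95% intervals (lines), for mice labelled Nts+/+ (blue) and Nts-/- (orange). Filled points passed edgeR's test at an adjusted p under 0.05: Hp and Lcn2 in both labels, and Saa2, Saa4 and Orm1 in Nts+/+ livers.

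Ratios of counts within a library do not depend on how libraries are scaled. The pairs Hp to Orm1 and Lcn2 to Saa4 were chosen after their values were seen, so that their ratios restate the values above as a description. The count ratio of Hp to Orm1 was between 3.00 and 4.20 in fed and between 8.47 and 10.6 in fasted Nts+/+ livers, and between 2.31 and 6.81 in fed and between 9.97 and 12.1 in fasted livers labelled Nts-/-. The ratio of Lcn2 to Saa4 was between 0.0206 and 0.0822 in fed and between 0.414 and 0.875 in fasted Nts+/+ livers. In livers labelled Nts-/- it was between 0.0247 and 0.0799 when fed and between 0.291 and 0.673 when fasted. The ratio of Saa1 to Saa2 was between 1.36 and 2.46 over the fed mice and between 1.61 and 2.43 over the fasted mice.

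Other positive acute phase proteins of liver were compared as a list of 19 genes, all tested. For the mean of both genotypes, 8 rose and 5 fell, against 32.8% of all genes tested, 16.0% higher and 16.8% lower. The median log2 fold change was 0.013, against -0.0071 for all genes. Lrg1, a leucine-rich plasma glycoprotein, rose by 1.59 on the log2 scale (SE 0.27, adjusted p = 0.00106, edgeR), from 228 ± 81.5 to 762 ± 119 CPM in Nts+/+ and from 236 ± 129 to 643 ± 158 CPM in livers labelled Nts-/- (SD, n = 3). Serpina3n, a protease inhibitor, rose by 1.17 (SE 0.20, adjusted p = 8.75e-04), and Steap4, a metalloreductase, had a log2 fold change of -1.20 (SE 0.13, adjusted p = 2.11e-05). In each of these 3 genes the fasted and fed mice did not overlap in either label. Of all genes tested, 36.0% did not overlap in Nts+/+ livers and 35.2% in livers labelled Nts-/-. Since the 3 were named for their smallest p in the fasting test, this is no separate support. The 5 that fell also included Crp and the fibrinogen genes Fga, Fgb and Fgg. Their log2 fold changes were between -0.44 and -0.36. The 8 that rose also included Lbp, which presents bacterial lipopolysaccharide, at 0.61, its receptor Cd14 at 0.91, and the metallothionein Mt1 at 2.36.

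Among 8 negative acute phase proteins, 2 rose and 3 fell, against 16.0% and 16.8% of all genes, with a median of -0.0098. Rbp4, the carrier of retinol, rose by 1.14 (SE 0.11, adjusted p = 6.04e-06, edgeR), whereas Ttr, the carrier of thyroxine, and Trf, the carrier of iron, had log2 fold changes of -0.76 (SE 0.12, adjusted p = 3.95e-04) and -0.69 (SE 0.11, adjusted p = 3.12e-04). The fed and fasted mice of both labels were apart in all 3 genes, which were likewise named for their smallest p in this test. Albumin (Alb), the main plasma protein, had a log2 fold change of 0.059 (SE 0.11, adjusted p = 0.711).

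Of 29 ligands, receptors and transcription factors of the IL-6 and IL-1 pathways, 25 were tested, and Il6, Lif, Osm and Tnf had too few counts. For the mean of both genotypes, 5 rose and 3 fell, with a median of 0.059. These 8 of 25 genes are a share close to the 32.8% of all genes that passed, so the count is not a result about the pathways. Cebpd, which encodes C/EBP delta, rose by 1.36 (SE 0.20, adjusted p = 2.48e-04, edgeR), from 3.52 ± 1.20 to 8.99 ± 2.92 CPM in Nts+/+ and from 3.65 ± 1.02 to 9.38 ± 0.401 CPM in livers labelled Nts-/- (SD, n = 3). Cebpb, which encodes C/EBP beta and was singled out after its values were seen, rose by 1.14 (SE 0.25, adjusted p = 0.00528), and Cebpa had a log2 fold change of 0.017 (SE 0.14, adjusted p = 0.939). For Cebpd and Cebpb, fed and fasted mice did not overlap in either label, but both were picked by this same effect.

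Il6ra, the IL-6 receptor, rose by 0.81 (SE 0.14, adjusted p = 7.84e-04, edgeR), whereas the signalling subunit Il6st, named after its values were seen, had a log2 fold change of -0.40 (SE 0.11, adjusted p = 0.0157) and the related receptor Lifr of -1.93 (SE 0.12, adjusted p = 2.56e-07). Lifr went from 366 ± 86.5 to 91.0 ± 6.83 CPM in Nts+/+ and from 269 ± 15.0 to 74.4 ± 9.85 CPM in livers labelled Nts-/- (SD, n = 3). A further receptor of the family, Osmr, had a log2 fold change of -0.14 (SE 0.20, adjusted p = 0.637) and did not pass. The IL-1 receptor Il1r1 and its antagonist Il1rn rose by 0.63 and 1.15, and the kinase Jak2 fell by 0.43 on the log2 scale. Stat3 (0.022, adjusted p = 0.921) and its feedback inhibitor Socs3 (0.21, adjusted p = 0.633) did not pass.

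**Figure D3:**
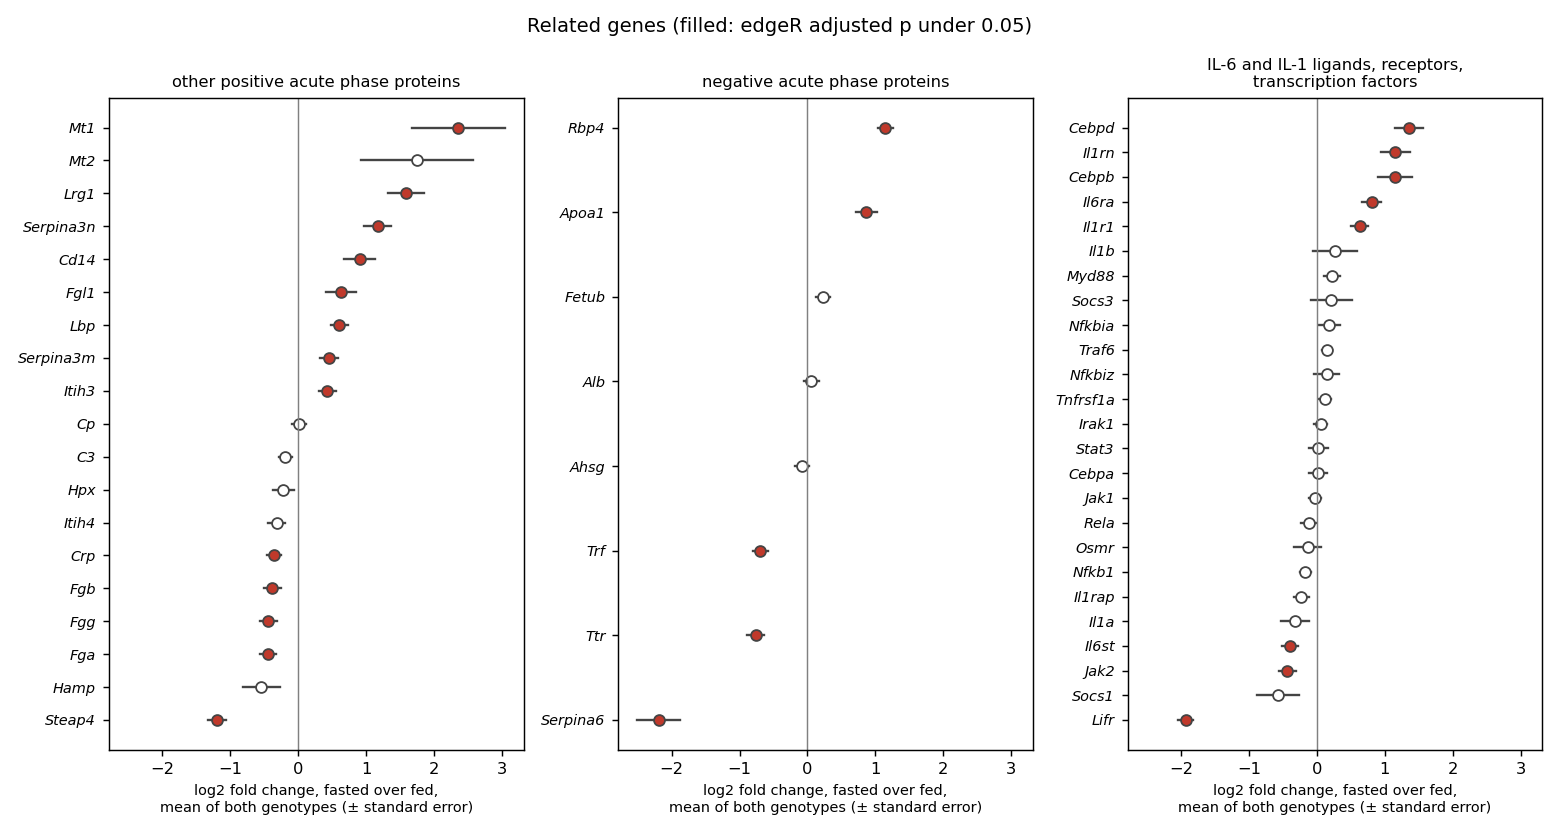
Log2 fold change of fasted over fed livers, averaged over both labelled genotypes (points, with standard errors as lines), for other positive acute phase proteins, negative acute phase proteins, and tested genes of the IL-6 and IL-1 pathways. Filled points passed edgeR's test at an adjusted p under 0.05, and each panel holds filled points on both sides of 0.

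Of 9 receptors and partners of the member proteins, 7 were tested and 0 passed, with 1 at an unadjusted p under 0.05. That gene was Scarb1, a lipoprotein receptor that takes up serum amyloid A, with a log2 fold change of 0.38 (SE 0.16, adjusted p = 0.0872, edgeR). The chemotactic receptor Fpr2 (0.48, adjusted p = 0.376) and Tlr4 (-0.22, adjusted p = 0.413) were each at 2.51 CPM or less on average in every group. Among 9 glucocorticoid-responsive genes, 3 rose and 2 fell, against 16.0% and 16.8% of all genes, with a median of 0.51. Per1, a clock gene, rose by 1.39 (SE 0.37, adjusted p = 0.0158) and Sgk1, a kinase, by 0.87 (SE 0.20, adjusted p = 0.00565), whereas Nr3c1, which encodes the receptor itself, had a log2 fold change of -0.47 (SE 0.11, adjusted p = 0.00458).

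The genotype comparison sets libraries labelled Nts-/- against those labelled Nts+/+ in the same feeding state, and it uses the same mice as the fasting comparison. Since the Nts counts did not follow the labels, it cannot be read as the effect of losing neurotensin. In fed livers, all 10 members had a negative log2 fold change for libraries labelled Nts-/- over Nts+/+, from -0.77 for Saa1 to -0.27 for Apcs, and 0 passed, against 0% of all genes tested. Their median was -0.46, against 0.010 for all genes. Of the 13812 genes tested, 7160 had a positive log2 fold change. The 10 member values come from the same fed mice, so their signs are not independent. At an unadjusted p under 0.05 there was 1 member, Orm1, at -0.47 (SE 0.20, 95% interval -0.90 to -0.029, adjusted p = 0.774, edgeR), and 876 of all genes. DESeq2 called 0 members and 8 genes.

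Hp, Saa2 and Saa4 were lower in every fed library labelled Nts-/- than in the fed Nts+/+ libraries, against 5.85% of all genes tested that were lower without overlap. Their log2 fold changes were -0.46 for Hp (95% interval -0.93 to 0.0036), -0.40 for Saa2 (-0.92 to 0.13) and -0.46 for Saa4 (-1.09 to 0.17). The adjusted p of the 10 members was between 0.774 and 0.908. The Kupffer cell markers were lower in the same libraries, where their summed range did not overlap that of fed Nts+/+ livers. Of the 11 markers, 5 had an unadjusted p under 0.05 and 0 passed, and their part in these values was not tested.

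In fasted livers, 6 members had a negative and 4 a positive log2 fold change for the same labels, from -0.83 for Lcn2 (95% interval -2.12 to 0.45) to 0.37 for Orm3 (-0.87 to 1.61). Here 0 members passed, against 0% of all genes, and 0 members and 685 genes had an unadjusted p under 0.05, with 0 members and 4 genes called by DESeq2. Their median was -0.093. Orm1 alone of the members was lower in every fasted library labelled Nts-/- than in the fasted Nts+/+ libraries, against 6.88% of all genes tested, at -0.32 (SE 0.20, 95% interval -0.76 to 0.11, adjusted p = 0.917, edgeR).

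The difference of the fasting effect between the labels, which uses the same mice, was tested as an interaction. It passed for 0 members and 0% of all genes, and 0 members and 663 genes had an unadjusted p under 0.05, with 0 members and 3 genes called by DESeq2. The estimate was 0.82 for Saa1 (95% interval -0.32 to 1.95), 0.66 for Saa2 (-0.084 to 1.41), 0.35 for Hp (-0.31 to 1.01) and -0.42 for Lcn2 (-2.28 to 1.45). Hence a call in Nts+/+ livers without a call in livers labelled Nts-/-, as for Saa2, Saa4 and Orm1, does not show that the effects differ.

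**Figure D4:**
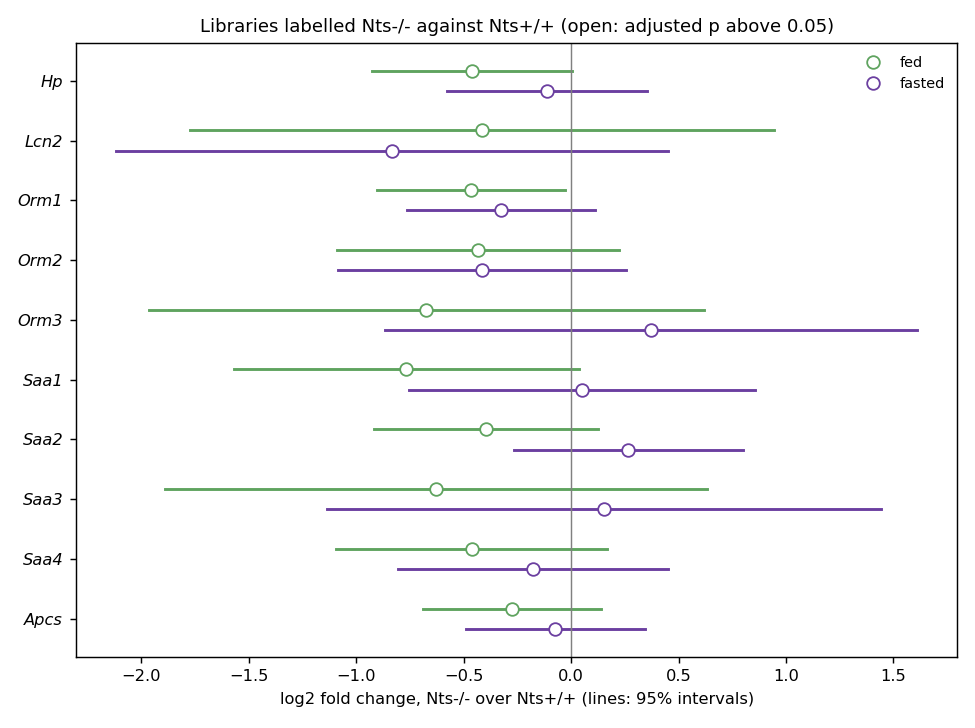
Log2 fold change of libraries labelled Nts-/- over Nts+/+ for each member (points) with 95% intervals (lines), in fed (green) and fasted (purple) livers. All points are open, since none passed edgeR's test at an adjusted p under 0.05, and all 10 fed values lie below 0.

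The members varied more between mice of the same group than most genes. The pooled standard deviation within groups, on the scale of log2 CPM, had a median of 0.415 over the members and 0.237 over all genes tested. It was 0.910 for Orm3, 0.768 for Lcn2, 0.747 for Saa3 and 0.520 for Saa1, and lowest for Apcs (0.272), Orm1 (0.281) and Hp (0.296). The median of the mean log2 CPM was 4.37 over the members and 3.48 over all genes tested.

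To see whether members deviated together, each mouse's distance from its group mean was compared between members over the 12 mice. Of 45 pairs, 32 had a positive Pearson's r, 4 had an unadjusted p under 0.05 in an exact permutation test within groups (two-sided), and 0 passed after adjustment over the 45 pairs (lowest adjusted p = 0.434). The 1296 arrangements allow no p below 7.72e-04. Saa1 and Saa2 had r = 0.88 and Spearman's rho = 0.65 (permutation p = 0.0123 and 0.104), and r = 0.83 without the 2 mice farthest from the median of Saa1. Orm1 and Orm3 had r = 0.87 and rho = 0.78 (permutation p = 0.0347 and 0.0617), and r = 0.74 without the 2 mice farthest from the median of Orm1. Saa2 and Saa4 had r = 0.73 and rho = 0.77 (permutation p = 0.0386 and 0.0293), and r = 0.49 without 2 mice chosen in the same way. Saa4 and Orm1 had r = 0.34 and rho = 0.56 (permutation p = 0.0309 and 0.0378), and r = 0.54 without 2 mice. Mice 257, 319 and 323 lay below their group means in all 3 Orm genes.

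**Figure D5:**
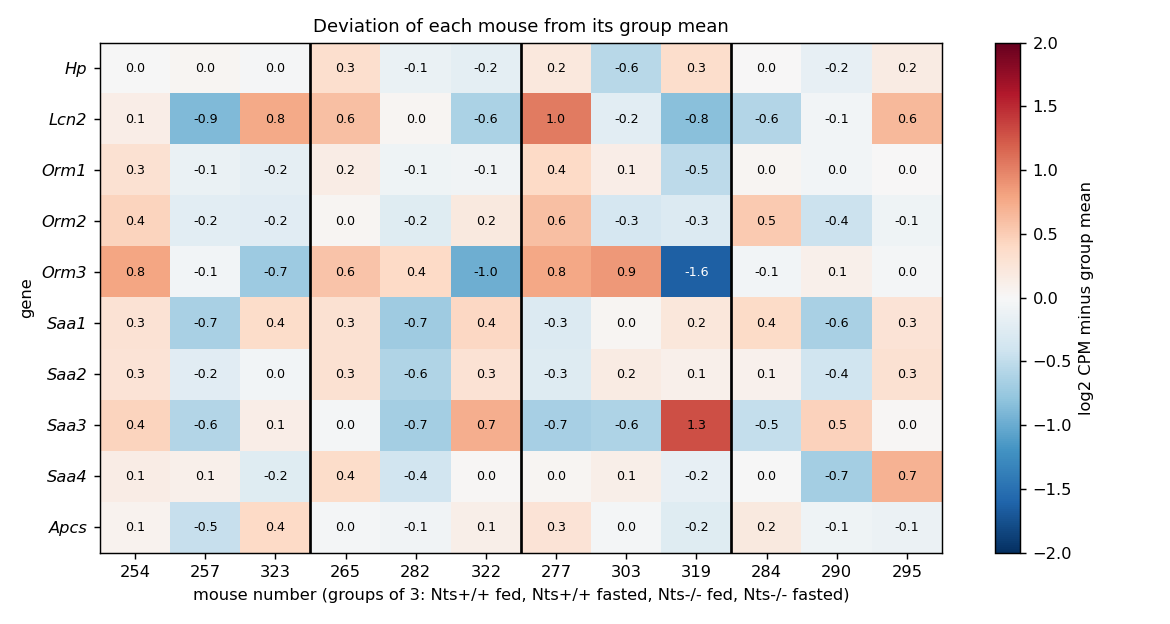
Log2 CPM of each member (rows) in each mouse (columns) minus the mean of its group, with red above and blue below the mean and lines between the 4 labelled groups. Mouse 319 stands out in both directions, low for Orm3 and high for Saa3, and mice 257, 277, 282 and 290 lie below their group mean for both Saa1 and Saa2.

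The genes outside the group whose deviations were most like those of each member were named by their r over the 12 mice, as a description without a test. Because they were picked for the highest r among 13812 genes tested, a high r alone does not show a relation. The highest of all genes tested was Mrpl44 for Saa1 (r = 0.92), Psme2 for Saa2 (0.94), Tspan8 for Saa3 (0.96), Ngef for Saa4 (0.91) and Zfp120 for Apcs (0.95). For the others it was Avl9 for Orm1 (0.94), Spata13 for Orm2 (0.91), Lss for Orm3 (0.95), Zfp748 for Lcn2 (0.96) and Ormdl3 for Hp (0.92). Spearman's rho was 0.66 for Mrpl44 and 0.67 for Ngef, and at least 0.909 for the rest of these first genes. Among the genes that follow, it was as low as 0.62 (Atg4a). Next came Lancl1 and Ccdc90b (Saa1), Sertad3 and Pgpep1 (Saa2), Cdkn1a and Tmem125 (Saa3), Atg4a and Adra1b (Saa4), Slc6a4 and Ttc8 (Apcs), Gdf6 and Gm10451 (Orm1), Pcf11 and C730036E19Rik (Orm2), Gsk3b and Nsdhl (Orm3), BC003331 and Kifap3 (Lcn2), and Apbb1 and Itih3 (Hp). Of these only Itih3 is an acute phase gene of the list above.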

How the data were processed

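Total RNA of 12 mouse livers was sequenced. The values that the authors deposited are expected counts: RSEM-type estimates in which a read may be divided between genes, with no scaling between mice. The submitters' processing notes name Trimmomatic, RSEM and GRCm38, with no versions, and the aligner is not given in the sources used here. Columns of other samples number 0, and 1220 of the 48795 genes have no symbol.

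Rounding gave whole counts. The 13812 genes that passed a filter on low counts (filterByExpr of edgeR 4.0.16 in R 4.3.3) were scaled with TMM, followed by 1 quasi-likelihood model (robust) holding a mean for each of the 4 groups. A gene passed at a Benjamini-Hochberg adjusted p under 0.05 over all genes tested. The common biological coefficient of variation was 0.202. All mice carry the same batch label. Values of log2 CPM used a prior count of 2. Transcript lengths and shared windows came from canonical transcripts of GENCODE vM39, matched by Ensembl identifier. Promoters came from RefSeq, as uninterrupted sequence before the start. The tests were tried on simulated counts first.

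Alternatives were RLE, upper-quartile or library-total scaling, DESeq2 1.42.0, testing genes without a filter or with a minimum of 10 counts in each mouse, fitting only the mice compared, summed Saa1 and Saa2 and summed Orm genes, a prior count of 0.5, and leaving out each mouse. Upper-quartile and library-total scaling, and the alternatives for pairs of members, were chosen after seeing the data. The members and lists were chosen with earlier results of these data known. Genes named were all members, the 3 genes with the smallest p for the mean fasting effect in each list that marks no cell type, and the 3 genes most like each member. Other genes were named after their values were seen.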

Additional observations from a re-analysis of the deposited data

How the results depend on the processing

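With 3 mice in a group, calls within a label were fragile. The number of members that passed the fasting test in Nts+/+ livers, 5, was between 1 and 4 with a mouse left out and between 4 and 7 under the other alternatives. In livers labelled Nts-/- it was 2, between 1 and 2 with a mouse left out, 4 with library totals only, and 1 with no count filter or with only the mice compared. For the mean of both genotypes it was 6, between 6 and 7 with a mouse left out and between 5 and 7 otherwise. With copies summed, the Orm sum was counted as Orm1, Orm2 and Orm3. In Nts+/+ livers and for the mean, only Saa4, that sum, Lcn2 and Hp passed there. With a mouse left out, calls over all genes were between 1224 and 2418 (from 2501) in Nts+/+ livers. They were between 1358 and 2631 (from 2326) in livers labelled Nts-/-, and between 3729 and 4594 (from 4524) for the mean. The genotype and interaction counts stayed at 0 members. The median spread of the members was between 0.368 and 0.439 with a mouse left out. The cause of these moves was not tested. No paired analysis was possible because the mouse numbers are all different and no label pairs mice across groups.

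Scaling by library totals only moved the median log2 fold change of all genes to -0.12 for the mean fasting effect and to -0.18 in livers labelled Nts-/-, and the genes that passed to 1399 higher and 3219 lower (from 2204 and 2320) for the mean, 883 and 1446 (from 1231 and 1270) in Nts+/+ livers and 576 and 2171 (from 1063 and 1263) in those labelled Nts-/-. The 6 members that passed for the mean kept their direction under every alternative run.

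Directions that turned were those of values that had not passed. With the Orm genes summed, Orm3 turned to -0.63 (Nts+/+ fasting), -0.49 (fasting, labelled Nts-/-), -0.56 (mean) and -0.32 (genotype, fasted), since the sum follows Orm1. With library totals only, the interaction of Orm2 was -0.10. With a mouse left out, the fasting effect was between -0.15 and 0.64 for Orm3 in Nts+/+ livers, and between -0.24 and 0.19 for Saa1 and -0.65 and 0.64 for Saa3 in livers labelled Nts-/-. The genotype difference was between -1.14 and 0.021 for Lcn2 in fed livers, and in fasted livers between -0.22 and 0.31 for Saa1, -0.12 and 0.62 for Saa3, -0.60 and 0.099 for Saa4, and -0.21 and 0.073 for Hp. The interaction was between -0.13 and 0.56 for Saa4, -0.080 and 0.36 for Orm1, -0.28 and 0.39 for Orm2, -0.85 and 0.31 for Lcn2, and -0.015 and 0.40 for Apcs.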
